A study of Mus musculus with 18 samples.

Results

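The genes described here are 10 that cone photoreceptors use to turn light into an electrical signal: Opn1sw, Opn1mw, Gnat2, Gngt2, Pde6c, Pde6h, Cnga3, Cngb3, Arr3 and Guca1a. They were picked by symbol and found by Ensembl identifier in a count table of 54532 genes, where each of the 10 has 1 row. In a cone, a cone opsin that has absorbed light activates the G protein transducin, transducin releases the catalytic subunit of a phosphodiesterase from its inhibitory subunit, and the enzyme breaks down cyclic GMP so that cyclic GMP-gated channels close. Cone arrestin shuts the opsin off and guanylate cyclase activating protein restores cyclic GMP. Rods use a parallel set of proteins encoded largely by other genes.

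All libraries come from retinas of mice of the strain rd1 (FVB) at postnatal day 30. The rd1 allele disrupts Pde6b, a subunit of the rod phosphodiesterase; rods are lost early in such mice and cones degenerate after them. Every mouse received an adeno-associated virus for GFP under the retina, either as AAV8-GFP + AAV8-TGFB1 (TGFB1 below) or as AAV8-GFP alone (GFP below), so the virus itself and the rd1 allele are shared by both arms, and the promoter in the vectors is not named in the labels. Papain-dissociated cells were split by antibody staining and sorting into microglia and all other cells, with 7 TGFB1 and 7 GFP microglia libraries and 2 TGFB1 and 2 GFP non-microglia libraries. Nothing in the labels ties a library to an animal, and p-values therefore reflect only how far these libraries spread, in part perhaps for technical reasons.

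Libraries held 1582451 to 3064027 counts, made by a modified Smart-Seq2 protocol, and 3 counts in a library, taken as the floor, correspond to 0.881 to 2.12 counts per 1000000 (CPM). The 10 microglia markers summed to 44286 ± 2259 CPM in TGFB1 microglia and 43199 ± 2376 CPM in GFP microglia (SD, n = 7 each). In non-microglia the same markers summed to 62.0 and 57.2 CPM in the TGFB1 libraries and to 65.2 and 69.7 CPM in the GFP libraries. Cones are thus looked for in the non-microglia, where all 10 genes had counts in all 4 libraries, and RNA of cone genes found in sorted microglia is described separately. In bulk libraries such as these, fewer cones and less RNA per cone cannot be told apart. Nrl, which encodes a transcription factor that defines rods, had no count in the TGFB1 or the GFP non-microglia libraries.

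Promoter windows of 250 bases before to 50 bases after the RefSeq gene start (GRCm38.p6) were at hand for 7 of the 10 genes. Both opsins are shown because the results turn on them, and Arr3 and Gnat2 because they hold the 5-letter core bound by the photoreceptor factors CRX and OTX2. Capitals mark that core, TAATC or its reverse complement GATTA, searched on both strands. The windows read 5′ to 3′ along the gene's own strand.

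Opn1sw, minus strand of chr6:29380464-29380763: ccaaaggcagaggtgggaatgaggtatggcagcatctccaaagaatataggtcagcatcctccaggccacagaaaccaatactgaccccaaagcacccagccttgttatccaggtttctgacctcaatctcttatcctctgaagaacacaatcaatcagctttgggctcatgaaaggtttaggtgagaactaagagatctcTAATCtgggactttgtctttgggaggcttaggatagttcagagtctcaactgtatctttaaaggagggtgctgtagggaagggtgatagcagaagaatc
Opn1mw, plus strand of chrX:74127216-74127515: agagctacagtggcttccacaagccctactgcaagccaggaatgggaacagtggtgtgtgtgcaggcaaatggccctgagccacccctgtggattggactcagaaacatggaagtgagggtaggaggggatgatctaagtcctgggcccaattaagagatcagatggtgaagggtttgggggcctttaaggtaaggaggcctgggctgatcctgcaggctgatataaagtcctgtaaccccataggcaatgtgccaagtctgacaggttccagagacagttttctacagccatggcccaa
Arr3, plus strand of chrX:100605247-100605546: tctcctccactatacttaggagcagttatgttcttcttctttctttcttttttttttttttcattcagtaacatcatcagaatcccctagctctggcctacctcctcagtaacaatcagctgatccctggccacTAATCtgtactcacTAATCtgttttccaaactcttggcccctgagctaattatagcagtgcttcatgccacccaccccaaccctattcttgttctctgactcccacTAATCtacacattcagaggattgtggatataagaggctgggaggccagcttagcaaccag
Gnat2, plus strand of chr3:108092816-108093115: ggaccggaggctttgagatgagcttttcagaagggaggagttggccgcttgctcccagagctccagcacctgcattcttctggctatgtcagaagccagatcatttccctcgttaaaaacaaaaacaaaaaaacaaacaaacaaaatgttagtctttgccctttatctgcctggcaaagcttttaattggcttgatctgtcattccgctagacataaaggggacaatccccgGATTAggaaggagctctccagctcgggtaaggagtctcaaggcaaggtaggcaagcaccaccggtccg

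The core lies 116, 102 and 10 bases before the start of Arr3, 49 bases before Opn1sw, 18 bases before Gnat2 and 56 bases before Guca1a. These letters are not in the windows of Opn1mw, Pde6h and Cnga3. Thus 4 of 7 cone genes hold the core, against 22% of the 32851 windows of the same length over all genes, and a match is a description of the sequence only. The cone figure counts genes and the other counts windows, and a gene can have several windows, as Cnga3 does.

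In non-microglia, the cone genes as a group had a median log2 change of -0.34 in TGFB1 against GFP, beside -0.0006 over all 13598 genes tested, but none of the 10 passed the test. All 10 cleared the filter on low counts. The test was edgeR's quasi-likelihood test with Benjamini-Hochberg adjustment over all genes, called at an adjusted p under 0.05, which called 0.39% of all genes, 0.338% higher and 0.0515% lower. For the cone genes, 7 of the log2 changes were negative and 3 positive, and 4 had an unadjusted p under 0.05, as did 7.63% of all genes. DESeq2 also called none but gave no adjusted p for Cnga3 and Cngb3, and limma voom called 1, Opn1sw. For 6 of the 10 genes (Opn1sw, Gnat2, Pde6h, Cnga3, Arr3 and Guca1a) both TGFB1 libraries lay below both GFP libraries, and for none did both lie above. Among all genes tested, 18.9% lay apart in that lower direction and 17.5% in the higher direction.

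The opsins set which wavelengths a cone responds to, and most mouse cones make both in varying proportion. Opn1sw encodes the short-wavelength opsin and lies at chr6:29376671-29388468 in GRCm38. It had 239 and 465.9 CPM in TGFB1 non-microglia, against 958 and 1010 CPM in GFP non-microglia. Both TGFB1 libraries were lower than either GFP library, and the TGFB1 libraries differed more from each other than the GFP libraries did. The log2 change was -1.47 (SE 0.45), with an unadjusted p of 0.0692 and an adjusted p of 0.700 in edgeR's quasi-likelihood test with robust dispersion. That call turned on how the spread was estimated. Without robust dispersion edgeR gave an adjusted p of 0.000686 at the same log2 change, limma voom gave -1.55 with an adjusted p of 2.24e-05, and DESeq2 gave -1.47 with an adjusted p of 0.142. Leaving out TGFB1 replicate 1 gave -1.07 (adjusted p of 2.43e-10 in edgeR) and leaving out TGFB1 replicate 2 gave -2.03 (adjusted p of 1.71e-18 in edgeR), each on the assumption that the lone TGFB1 library varies like the GFP pair. Over all alternatives the adjusted p of Opn1sw ran from 1.3e-62 to 1.

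Opn1mw encodes the medium-wavelength opsin and lies at chrX:74127464-74150760. It had 125 and 197 CPM in TGFB1 non-microglia, against 112 and 178 CPM in GFP non-microglia. The groups overlapped, and replicate 2 was the higher library in both arms. The log2 change was 0.16 (SE 0.42, adjusted p of 0.988 in edgeR's quasi-likelihood test). It was -0.15 without GFP replicate 1 and -0.21 without TGFB1 replicate 2, so its direction rested on single libraries of either arm. Without GFP replicate 2 it was 0.53 with an adjusted p of 0.0318 in edgeR, where the lone GFP library is assumed to vary like the TGFB1 pair.

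Set against each other within a library, the opsins gave 1.92 and 2.37 Opn1sw counts per Opn1mw count in TGFB1 non-microglia. The same ratio was 8.53 and 5.67 in GFP non-microglia. Both TGFB1 ratios lay below both GFP ratios, with no test made on 2 libraries against 2. Summed over libraries, the counts were 2168 Opn1sw to 988 Opn1mw in TGFB1 non-microglia and 6260 Opn1sw to 911 Opn1mw in GFP non-microglia. Such a ratio sets the opsins against each other and says nothing of the level of either alone. Opn1sw shares 397 bases of exon, 15.5% of its merged exons, with Calu on the opposite strand, and whether counting used strand is not given in the sources used here. Calu had 213 ± 4.02 CPM in TGFB1 and 254 ± 1.43 CPM in GFP non-microglia (SD, n = 2 each). In microglia, Opn1sw counts were 0 to 4.32% of Calu counts in TGFB1 (median 0.651%) and 0 to 41.0% in GFP (median 3.19%). In GFP microglia replicate 3, Opn1sw had 0 counts beside 512 Calu counts. Whether Calu reads entered the Opn1sw counts was not tested.

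**Figure D1:**
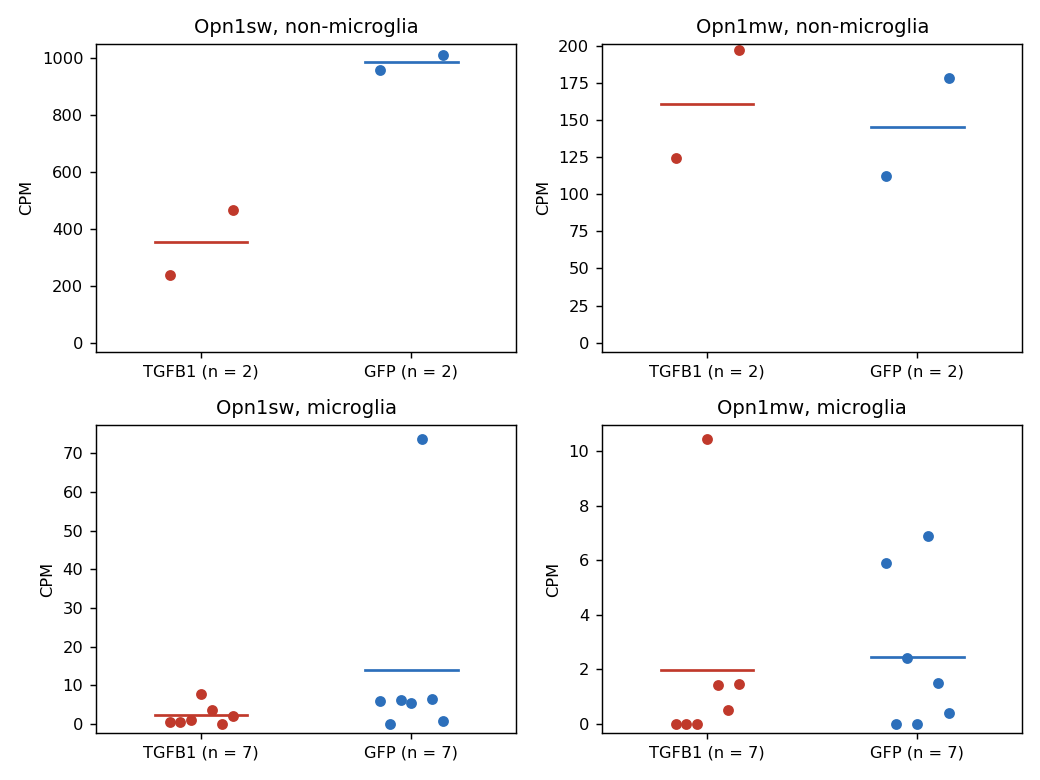
CPM of Opn1sw and Opn1mw in each library of the TGFB1 (left, red) and GFP (right, blue) groups, non-microglia above and microglia below; points are libraries and lines are group means, and each panel has its own scale. Opn1sw lies at 239 and 465.9 CPM in TGFB1 against 958 and 1010 CPM in GFP non-microglia, while Opn1mw overlaps, and 1 GFP microglia library stands at 73.6 CPM for Opn1sw.

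Transducin carries the signal from the opsin. Gnat2, at chr3:108092789-108101432, encodes its cone alpha subunit and had 138 and 150 CPM in TGFB1 non-microglia, against 165 and 211 CPM in GFP non-microglia. The groups lay apart with the TGFB1 libraries lower, at a log2 change of -0.38 (SE 0.12, unadjusted p of 0.00410, adjusted p of 0.282 in edgeR). Gngt2, at chr11:95837216-95845734, encodes the cone gamma subunit. It had 38.8 and 43.5 CPM in TGFB1 non-microglia, against 41.1 and 62.6 CPM in GFP non-microglia, and the groups overlapped. Its log2 change was -0.32 (SE 0.20, adjusted p of 0.804 in edgeR). The beta subunit Gnb3, which cones share with ON bipolar cells, had 767 ± 47.7 CPM in TGFB1 and 601 ± 39.1 CPM in GFP non-microglia (SD, n = 2 each), a log2 change of 0.36 (SE 0.08) with an adjusted p of 0.0528 in edgeR.

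The phosphodiesterase has a catalytic subunit, Pde6c, and an inhibitory subunit, Pde6h. Pde6c, at chr19:38132781-38183958, had 116 and 112 CPM in TGFB1 non-microglia, against 97.5 and 118 CPM in GFP non-microglia, with both TGFB1 libraries inside the GFP range. Its log2 change was 0.094 (SE 0.12, adjusted p of 0.954 in edgeR). Pde6h, at chr6:136923832-136968865, had 105 and 123 CPM in TGFB1 non-microglia, against 144 and 192 CPM in GFP non-microglia. Both TGFB1 libraries were lower, and the log2 change of -0.55 (SE 0.13) had the smallest unadjusted p of the 10 genes, 0.00072, and an adjusted p of 0.119 in edgeR. The call depended on the fit. Pde6h had an adjusted p of 0.00266 in edgeR with no filter on low counts and of 0.813 in edgeR with all 18 libraries in the fit. Without GFP replicate 1 the change was -0.75 with an adjusted p of 5.5e-06 in edgeR, where the lone GFP library is assumed to vary like the TGFB1 pair. The difference between the subunits' changes was not tested.

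The cyclic GMP-gated channel of cones is built from Cnga3 and Cngb3, and both genes were low. Cnga3, at chr1:37214434-37263384, had 10.4 and 10.7 CPM in TGFB1 non-microglia, against 14.1 and 11.4 CPM in GFP non-microglia, from 32 to 48 counts a library. The groups lay apart by less than 1 CPM at their nearest, and the log2 change was -0.27 (SE 0.33, adjusted p of 0.945 in edgeR). Cngb3, at chr4:19280850-19510623, had 6.52 and 16.6 CPM in TGFB1 non-microglia, against 10.3 and 11.4 CPM in GFP non-microglia. The TGFB1 libraries lay on either side of the GFP pair, and the log2 change of 0.097 (SE 0.39, adjusted p of 0.990 in edgeR) was -0.044 with limma voom.

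Recovery from light needs cone arrestin and the regulator of guanylate cyclase. Arr3, at chrX:100605497-100618493, encodes cone arrestin and had 105 and 120 CPM in TGFB1 non-microglia, against 123 and 169 CPM in GFP non-microglia. The nearest TGFB1 and GFP libraries were 120 and 123 CPM, and the log2 change was -0.37 (SE 0.14, unadjusted p of 0.0186, adjusted p of 0.510 in edgeR). Guca1a, at chr17:47394558-47400584, encodes a guanylate cyclase activating protein that rods use as well. It had 57.1 and 61.7 CPM in TGFB1 non-microglia, against 74.3 and 99.0 CPM in GFP non-microglia. Both TGFB1 libraries were lower, at a log2 change of -0.53 (SE 0.15, unadjusted p of 0.00205, adjusted p of 0.201 in edgeR).

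GFP replicate 1 was the lower GFP library for each of these genes but Cnga3. Without it the GFP arm holds 1 library and the spread comes from the TGFB1 pair alone. On that assumption edgeR called 4 of them lower in TGFB1 non-microglia: Pde6h as above, Arr3 at -0.59 (adjusted p of 0.00268), Gnat2 at -0.55 (adjusted p of 0.0016) and Guca1a at -0.74 (adjusted p of 0.00616). Without GFP replicate 2 none of the 10 was called lower. The number of all genes called was 110 without either GFP library and 28 without TGFB1 replicate 1, against 53 with all 4 libraries.

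**Figure D2:**
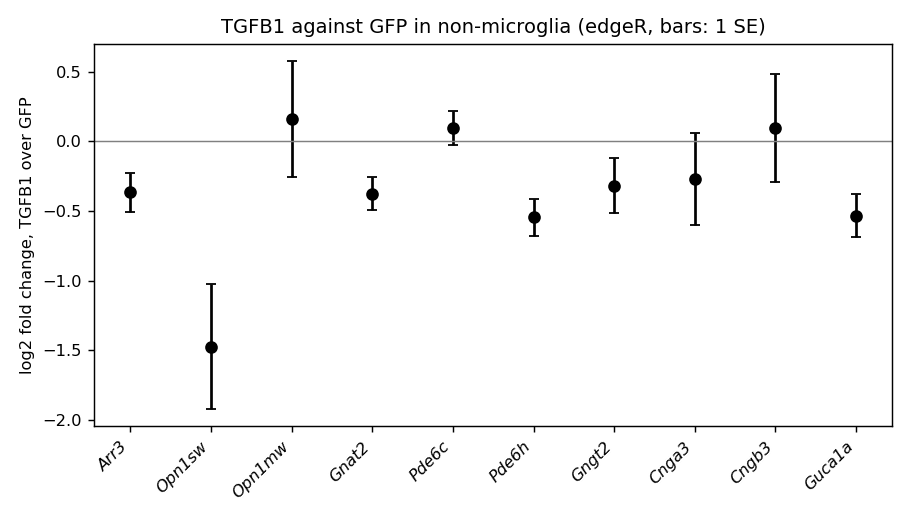
Log2 fold change of each cone gene in non-microglia, TGFB1 over GFP, from edgeR's quasi-likelihood fit; points are estimates and bars are 1 SE. Opn1sw lies lowest at -1.47 with the widest bar, 7 genes lie below 0 and 3 above, and none passed the test.

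Per kilobase of merged exon, Opn1sw had the highest level of the 10 in both arms, and its margin differed. In TGFB1 non-microglia the mean levels were 138 CPM per kb for Opn1sw, 103 for Opn1mw, 68.0 for Guca1a, 48.0 for Gnat2, 47.8 for Arr3 and 38.5 for Pde6c. Gngt2 at 21.9, Pde6h at 14.6, Cnga3 at 2.67 and Cngb3 at 2.45 CPM per kb followed. The neighbours Opn1sw and Opn1mw, Gnat2 and Arr3, and Cnga3 and Cngb3 overlapped between libraries there.

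In GFP non-microglia the mean levels were 385 CPM per kb for Opn1sw, 99.3 for Guca1a, 92.9 for Opn1mw, 62.7 for Gnat2, 62.0 for Arr3 and 36.3 for Pde6c. Gngt2 at 27.6, Pde6h at 21.4, Cnga3 at 3.23 and Cngb3 at 2.31 CPM per kb came last. Opn1sw lay apart from the next gene, while Guca1a and Opn1mw, Gnat2 and Arr3, Pde6c and Gngt2, and Gngt2 and Pde6h overlapped. By the length of the principal transcript in place of merged exons, Arr3 stood at rank 3 in both arms and Guca1a at rank 5 in TGFB1 and rank 4 in GFP non-microglia. Opn1sw stayed first and the channel genes stayed last by either length.

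**Figure D3:**
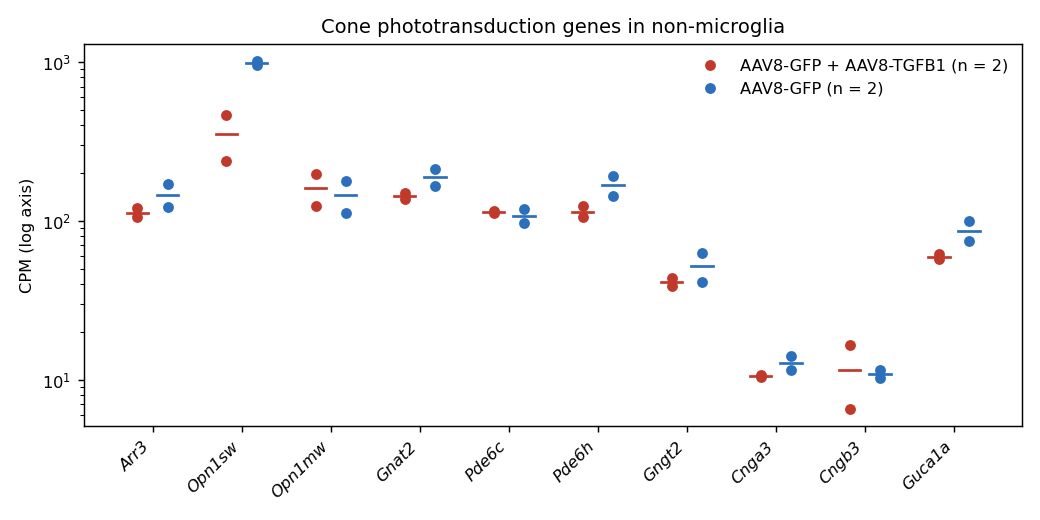
CPM of the 10 cone genes in the non-microglia libraries on a log axis, TGFB1 (red) left of GFP (blue); points are the 2 libraries of a group and lines their means. Opn1sw shows the widest gap between arms, and the channel genes Cnga3 and Cngb3 lie lowest, between 6.52 and 16.6 CPM.

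Genes that work beside these 10 were described in the same non-microglia comparison by edgeR's quasi-likelihood test. Of 9 cone identity genes outside the cascade none passed, with a median log2 change of -0.041. Besides Gnb3, the smallest p among them was that of Fam19a3, at 29.6 ± 8.67 CPM in TGFB1 and 42.3 ± 1.19 CPM in GFP non-microglia (SD, n = 2 each, adjusted p of 0.561 in edgeR). Of 13 phototransduction and recovery genes used by rods and cones none passed, with a median of -0.23. Gnb5, whose product helps to shut transducin off, had 181 ± 6.23 CPM in TGFB1 and 138 ± 10.03 CPM in GFP non-microglia (SD, n = 2 each), at a log2 change of 0.39 with an adjusted p of 0.164 in edgeR. The receptor kinase Grk1 had 11.2 ± 1.64 CPM in TGFB1 and 21.9 ± 2.34 CPM in GFP non-microglia (SD, n = 2 each), at a log2 change of -0.95 with an adjusted p of 0.227. Of 13 outer segment genes tested out of 14 none passed, with a median of -0.15. The membrane proteins Prom1, at a log2 change of -0.62 (adjusted p of 0.573 in edgeR), and Prph2, at -0.26 (adjusted p of 0.631 in edgeR), had the smallest p of that list. None of 6 photoreceptor transcription factors passed either, with a median of 0.29. Neurod1 was at 0.54 (adjusted p of 0.263 in edgeR) and Otx2 at 0.32 (adjusted p of 0.654 in edgeR), and bipolar cells make both factors too.

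Of 13 rod phototransduction genes, 7 were tested and none passed, at a median log2 change of -0.44. Sag, which encodes rod arrestin and in mouse is also made by cones, had 161 ± 32.5 CPM in TGFB1 and 287 ± 50.3 CPM in GFP non-microglia (SD, n = 2 each), at a log2 change of -0.83 with an adjusted p of 0.0799 in edgeR. Pde6g, the inhibitory subunit of the rod phosphodiesterase, was at -0.44 (adjusted p of 0.499 in edgeR). Among 6 genes of cone survival and glucose uptake none passed, with a median of -0.12. The glucose transporter gene Slc2a1 was at -0.32 (adjusted p of 0.358 in edgeR) and Nxnl1, which encodes a rod-derived cone viability factor, at -0.53 (adjusted p of 0.836 in edgeR).

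Of 8 photoreceptor synapse genes 2 were called higher in TGFB1 and none lower. Over the 8 genes, 4 log2 changes were positive and 4 negative, with a median of 0.15. Lrtm1 rose to 154 ± 8.46 CPM in TGFB1, against 90.6 ± 4.35 CPM in GFP non-microglia (SD, n = 2 each), at a log2 change of 0.77 (SE 0.12, adjusted p of 0.000539 in edgeR). Cacna2d4, a calcium channel subunit of the photoreceptor terminal, rose to 193 ± 1.10 CPM in TGFB1, against 133 ± 14.4 CPM in GFP (SD, n = 2 each), at a log2 change of 0.55 (SE 0.11, adjusted p of 0.0146 in edgeR). In the same comparison 7 of 9 bipolar markers tested, out of 10, were higher in TGFB1 non-microglia as well. The 10 bipolar markers summed to 2450 and 2135 CPM in TGFB1 non-microglia, against 1514 and 1425 CPM in GFP non-microglia. The groups did not overlap. Müller glia markers, the most abundant list, summed to 15650 and 16083 CPM in TGFB1 and to 17205 and 17724 CPM in GFP non-microglia, with none of 10 called. The part that these cell types have in the levels of the cone genes, Lrtm1 and Cacna2d4 was not tested.

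Erythroid markers also differed, with 3 of 3 tested lower in TGFB1, and summed to 265 and 276 CPM in TGFB1 non-microglia, against 654 and 731 CPM in GFP non-microglia. Their part in the cone values was not tested either.

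In sorted microglia, the cone genes fell into 3 sets. Gngt2 was higher in microglia than in non-microglia, Pde6h did not pass the test, and the other 8 genes were lower in microglia, most of them with only a few counts. In each arm, edgeR's quasi-likelihood test called 1 of the 10 higher, 8 lower and 1 not passing. Across all 15321 genes tested it called 65.2% in TGFB1 retinas and 64.2% in GFP retinas, so a call is common in this comparison. Of all genes, 34.4% were called lower in TGFB1 and 34.2% in GFP retinas, and 30.8% were called higher in TGFB1 and 29.9% in GFP retinas.

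Opn1sw averaged 2.19 ± 2.76 CPM in TGFB1 microglia and 14.04 ± 26.4 CPM in GFP microglia (SD, n = 7 each). The log2 change against non-microglia was -7.32 (SE 1.0, adjusted p of 1.19e-05 in edgeR) in TGFB1 retinas and -6.16 (SE 0.79, adjusted p of 6.21e-06 in edgeR) in GFP retinas. In TGFB1 retinas the change was -6.28 for Opn1mw, -6.36 for Gnat2, -7.04 for Pde6c and -6.33 for Arr3. In GFP retinas it was -5.99 for Opn1mw, -6.01 for Gnat2, -6.94 for Pde6c and -6.37 for Arr3. Leaving out 1 library moved the fold change of several genes by over 1.5 times, each time with the direction and the call kept in edgeR. Without TGFB1 microglia replicate 5 the change in TGFB1 retinas was -8.23 for Opn1sw, -8.24 for Opn1mw, -7.26 for Gnat2 and -8.25 for Arr3, and without TGFB1 non-microglia replicate 2 it was -6.73 for Opn1sw. Without GFP microglia replicate 6 the change in GFP retinas was -7.96 for Opn1sw, -6.63 for Gnat2, -7.77 for Pde6c and -6.99 for Arr3. Cnga3, at -4.32 in TGFB1 and -4.87 in GFP retinas, and Cngb3, at -5.49 in TGFB1 and -4.27 in GFP retinas, had at most 4 counts in any microglia library. Without TGFB1 microglia replicate 6 they were at -4.93 for Cnga3 and -6.53 for Cngb3 in TGFB1 retinas, without TGFB1 non-microglia replicate 2 Cngb3 was at -4.62, and without GFP microglia replicate 2 they were at -6.06 for Cnga3 and -5.03 for Cngb3 in GFP retinas. Guca1a had the smallest drop of the 8, at -3.02 in TGFB1 and -3.48 in GFP retinas, and was the only one of them with a count above the floor of 3 in all 14 microglia libraries, 8 to 30 counts.

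As a share of the non-microglia mean of the same arm, 5 of the 10 genes stood at 1.68% or less in microglia. The shares in TGFB1 microglia were 0.621% for Opn1sw, 1.23% for Opn1mw, 1.27% for Gnat2, 0.867% for Pde6c and 1.16% for Arr3. The shares in GFP microglia were 1.43% for Opn1sw, 1.68% for Opn1mw, 1.62% for Gnat2, 0.853% for Pde6c and 1.23% for Arr3. All of these shares but that of Pde6c in TGFB1 microglia fell when a single library was left out. Without TGFB1 microglia replicate 5 the shares in TGFB1 microglia were 0.355% for Opn1sw, 0.351% for Opn1mw, 0.781% for Gnat2, 0.948% for Pde6c and 0.321% for Arr3. Without GFP microglia replicate 6 the shares in GFP microglia were 0.418% for Opn1sw, 1.17% for Opn1mw, 1.07% for Gnat2, 0.497% for Pde6c and 0.805% for Arr3. The channel genes, on few counts, stood at 5.30% in TGFB1 and 3.66% in GFP microglia for Cnga3 and at 2.35% in TGFB1 and 5.44% in GFP microglia for Cngb3. Guca1a stood at 11.9% in TGFB1 and 8.89% in GFP retinas. Pde6h stood at 113% in TGFB1 and 81.9% in GFP retinas, and Gngt2 at 342% in TGFB1 and 280.2% in GFP retinas.

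Summed, all 10 genes reached 25.6% of their non-microglia level in TGFB1 microglia and 16.5% in GFP microglia. Pde6h and Gngt2, high in microglia, were then left out after their values were seen. The other 8 genes reached 1.68% in TGFB1 microglia and 1.84% in GFP microglia, low in part through that choice. Without the highest library of each arm the shares of the 8 genes were 1.17% in TGFB1 and 1.06% in GFP microglia. No gene was left out of the other lists below, so their shares are not like for like. Among markers of other cells, bipolar markers stood at 2.12% in TGFB1 and 4.86% in GFP microglia, the GFP value being 2.51% by the median of the microglia libraries, since replicate 2 was far above the rest. Müller glia markers stood at 3.09% in TGFB1 and 3.81% in GFP microglia, endothelial markers at 2.09% in TGFB1 and 2.67% in GFP microglia, pigment epithelium markers at 4.21% in TGFB1 and 4.38% in GFP microglia, and amacrine markers at 6.27% in TGFB1 and 8.96% in GFP microglia. Horizontal and ganglion cell markers, low in both fractions, had no such low share: horizontal markers stood at 70.0% in TGFB1 and 93.4% in GFP microglia, and ganglion cell markers at 157% in TGFB1 and 259.8% in GFP microglia. Erythroid markers were lower, at 0.0631% in TGFB1 and 0.396% in GFP microglia. The rod list stood at 25.3% in TGFB1 and 17.8% in GFP microglia, where Gnb1, a beta subunit that many cell types make, gave 73.1 of 82.5 CPM in TGFB1 and 74.4 of 86.9 CPM in GFP microglia. Cone identity genes stood at 11.9% in TGFB1 and 13.5% in GFP microglia. Sall3 gave 111 of 124 CPM in TGFB1 and 103 of 121 CPM in GFP there. Genes used by rods and cones stood at 6.61% in TGFB1 and 8.10% in GFP, and outer segment genes at 6.98% and 6.61%. Photoreceptor transcription factors stood at 7.39% in TGFB1 and 8.58% in GFP, and photoreceptor synapse genes at 4.29% and 9.27%. Cone survival and glucose uptake genes stood at 50.9% in TGFB1 and 51.2% in GFP.

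**Figure D4:**
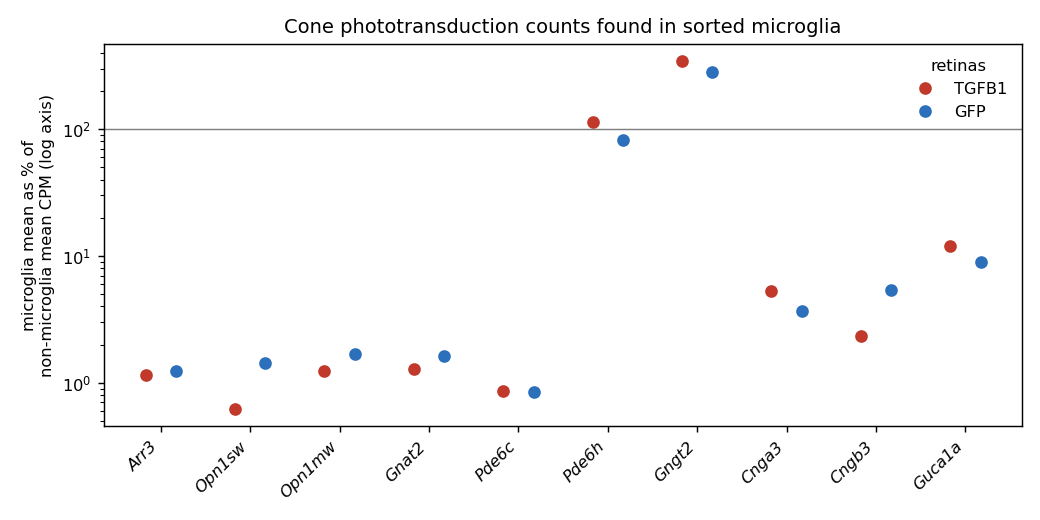
Mean CPM in microglia as a percent of the mean CPM in non-microglia of the same arm, on a log axis, for each cone gene; red points are TGFB1 retinas, blue points GFP retinas, and the grey line marks equal levels. Gngt2 lies above the line at 342% and 280.2%, Pde6h near it, Guca1a near 10%, and the other 7 genes between 0.621% and 5.44%.

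Pde6h and Gngt2 each share exon sequence with a gene on the opposite strand that blood-lineage cells express. Pde6h shares 136 bases, its first 2 of 5 exon blocks (chr6:136923832-136923907 and chr6:136924157-136924216), with Arhgdib, a gene expressed by blood cells. Both blocks lie upstream of the promoter window of Pde6h, chr6:136954273-136954572, which was placed at the RefSeq gene start. Gngt2 shares 234 bases of its first 2 of 5 exon blocks (chr11:95837216-95837317 and chr11:95842295-95842426) with Abi3, a gene for an actin regulator expressed by microglia. Without knowledge of the strand setting, reads of either pair cannot be told apart in those bases.

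Arhgdib had 614 to 1417 counts in the 14 microglia libraries and 6 to 23 counts in the 4 non-microglia libraries. Pde6h counts were 23.8 to 28.2% of Arhgdib counts in TGFB1 microglia (median 26.3%) and 26.9 to 30.8% in GFP microglia (median 27.7%). In non-microglia Pde6h counts exceeded those of Arhgdib in every library, at 4038% and 1652% in TGFB1 and 3069% and 9500% in GFP non-microglia. Abi3 had 468 to 1034 counts in microglia and 5 to 19 counts in non-microglia, and Gngt2 counts were 35.8 to 45.5% of Abi3 counts in TGFB1 microglia (median 41.2%) and 34.5 to 47.8% in GFP microglia (median 41.7%). Genes that are each steady across microglia libraries give a narrow range of ratios whether or not they share reads. The bases shared with the partner make up 1.73% of the merged exons of Pde6h and 12.5% of those of Gngt2. Exon bases shared with any other gene make up 7.97% of the merged exons of Arhgdib and 75.8% of those of Abi3. The origin of the Pde6h and Gngt2 reads was not tested, since the table holds sums per gene.

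**Figure D5:**
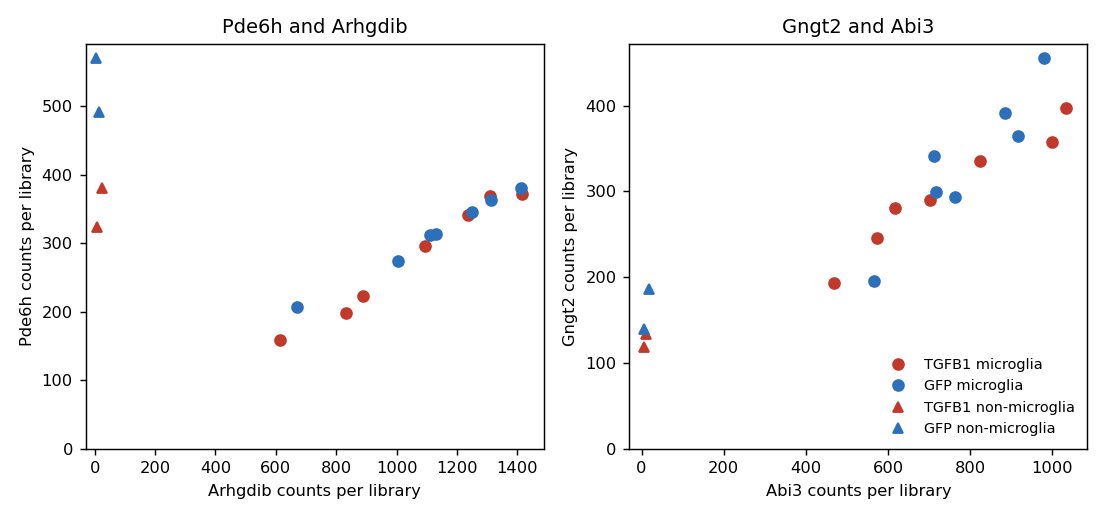
Counts per library of Pde6h against Arhgdib (left) and Gngt2 against Abi3 (right); red is TGFB1, blue GFP, circles microglia and triangles non-microglia. Counts are not scaled to library size; microglia libraries with more counts of the partner tend to hold more of the cone gene, and the 4 non-microglia libraries lie at the left edge, with 6 to 23 Arhgdib counts and 5 to 19 Abi3 counts.

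Pde6h had 108 to 148 CPM in TGFB1 microglia (median 136) and 122 to 150 CPM in GFP microglia (median 138), and the groups overlapped. Against non-microglia its log2 change was 0.18 in TGFB1 retinas (SE 0.13, adjusted p of 0.227 in edgeR) and -0.29 in GFP retinas (SE 0.13, adjusted p of 0.0517 in edgeR). The GFP value passed with other size factors, at -0.40 with an adjusted p of 0.00611 in edgeR with RLE factors and at -0.41 with an adjusted p of 0.00585 in DESeq2. Those scalings also moved the median log2 change of all genes between the fractions in GFP retinas, which was -0.17 with RLE factors and -0.18 in DESeq2, against -0.059 with TMM factors. Set against these medians, Pde6h lay 0.23 below all genes under each of the 3 scalings. Gngt2 had 134 to 146 CPM in TGFB1 microglia (median 142) and 115 to 168 CPM in GFP microglia (median 145). It was higher in microglia than in non-microglia by 1.77 on the log2 scale in TGFB1 retinas (SE 0.15, adjusted p of 1.21e-10 in edgeR) and by 1.49 in GFP retinas (SE 0.14, adjusted p of 1.57e-09 in edgeR).

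Between the arms, microglia showed no called cone gene. Only Pde6h, Gngt2 and Guca1a of the 10 passed the filter on low counts there, and edgeR's quasi-likelihood test called none of the 3, against 0.31% of 10970 genes tested (0.237% higher and 0.0729% lower). None of the 3 had an unadjusted p under 0.05, as 6.65% of all genes did, and DESeq2 and limma voom called none either. The log2 changes in TGFB1 against GFP microglia were -0.092 for Pde6h (SE 0.078, adjusted p of 0.908), -0.052 for Gngt2 (SE 0.070, adjusted p of 0.945) and -0.11 for Guca1a (SE 0.26, adjusted p of 0.973). Guca1a had 4.36 to 13.0 CPM in TGFB1 microglia (median 6.35) and 5.81 to 10.4 CPM in GFP microglia (median 7.66), with wide overlap.

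The other 7 genes entered the microglia comparison only with no filter on low counts, where edgeR called none and Opn1sw alone had an unadjusted p under 0.05. Opn1sw ran from 0 to 7.83 CPM in TGFB1 microglia (median 1.09) and from 0 to 73.6 CPM in GFP microglia (median 5.89). The groups overlapped, and 1 GFP library, replicate 6, held 160 of the 213 Opn1sw counts of its group. The log2 change was -2.66 (SE 1.17, unadjusted p of 0.0423, adjusted p of 0.615 in edgeR). Opn1mw ran from 0 to 10.4 CPM in TGFB1 microglia (median 0.510) and from 0 to 6.90 CPM in GFP microglia (median 1.505). Arr3 ran from 0 to 6.96 CPM in TGFB1 microglia (median 0.365) and from 0 to 5.52 CPM in GFP microglia (median 1.88), again with overlap.

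The few opsin counts found in microglia can be set beside those in non-microglia. Summed over libraries, Opn1sw and Opn1mw had 32 and 30 counts in TGFB1 microglia, and 213 and 35 counts in GFP microglia. These sums give 1.07 Opn1sw per Opn1mw count in TGFB1 and 6.09 in GFP microglia. They rested on single libraries: without TGFB1 replicate 5 the sums were 14 and 6, a ratio of 2.33, and without GFP replicate 6 they were 53 and 20, a ratio of 2.65. Those libraries, at a ratio of 0.75 in TGFB1 replicate 5 and 10.7 in GFP replicate 6, were picked after their values were seen. They pull the arms apart, so the close ratios without them follow in part from that choice. The remaining counts are few, and no test was made.

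The libraries with the most cone RNA were not those with the most RNA of other retinal cells. The 8 cone genes other than Pde6h and Gngt2 summed to 45.7 CPM in TGFB1 microglia replicate 5 and to 109.9 CPM in GFP microglia replicate 6, against 8.16 to 23.3 CPM in the other TGFB1 and 7.02 to 33.0 CPM in the other GFP microglia libraries. Bipolar markers were at 12.6 CPM in TGFB1 replicate 5 and 26.2 CPM in GFP replicate 6. They were highest at 139.8 CPM in TGFB1 replicate 6 and 250.3 CPM in GFP replicate 2. The same libraries came next for the 8 cone genes, at 23.3 CPM in TGFB1 replicate 6 and 33.0 CPM in GFP replicate 2. In GFP replicate 6, Opn1sw alone gave 73.6 of the 109.9 CPM of the 8 genes. Müller glia markers were at 426 CPM in TGFB1 replicate 5 and 415 CPM in GFP replicate 6, which was the lowest of the GFP microglia.

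The effect of TGFB1 was also compared between the fractions in a fit of all 18 libraries. For the 10 cone genes, edgeR's quasi-likelihood test called no difference of effects, microglia minus non-microglia, at an adjusted p of 0.99995 for each, against 0.0131% of 15321 genes. Of the 10, only Pde6h had an unadjusted p under 0.05 (0.0171), at a difference of 0.47 (SE 0.18), and 4.64% of all genes did. DESeq2 and limma voom called none of the 10. The differences ran from -1.23 for Cngb3 (SE 1.21) to 0.55 for Cnga3 (SE 1.22), and outside Pde6h, Gngt2 and Guca1a the SE was 0.94 to 1.59, and a difference of that size between the fractions was not detectable here.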

How the data were processed

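The authors deposited raw counts of reads, 1 row per Ensembl gene and 1 column for each of 18 bulk polyA libraries, with no normalization, per the file headers. Per the submitters' processing notes, STAR, featureCounts and DESeq2 were used with the build GRCm38.p6. Not given in the sources used here are tool versions, the release of the annotation, how strand was handled and which reads were filtered. Of 54532 identifiers, 54495 matched the GENCODE M21 annotation of GRCm38, and 37 did not.

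Groups came from sample titles. Each comparison was fitted across all genes with edgeR 4.0.16 in R 4.3.3 (TMM factors, filterByExpr, robust quasi-likelihood F test, Benjamini-Hochberg adjusted p under 0.05). TGFB1 against GFP used the libraries of 1 fraction; the fraction comparisons and the difference of effects used all 18 libraries. SE is the log2 fold change divided by the square root of F. CPM uses TMM-scaled sizes of the fit of all libraries, and CPM per kb divides by merged exon length. Exon overlaps were computed with bedtools 2.31.1. The script was tested on simulated data.

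Alternatives were RLE factors, no filter, no robust dispersion, DESeq2 1.42.0, limma 3.58.1 voom with quality weights, each library left out, a replicate block, a fit of all libraries and CPM on plain totals; 4 more were chosen after seeing the data (principal transcript length, the sum without Pde6h and Gngt2, and leaving out TGFB1 microglia replicate 5 or GFP microglia replicate 6). The 10 genes and all lists were chosen with earlier results of these data known. From other photoreceptor lists, the text names called genes or those with the smallest p, and further genes (Nrl, Gnb1 and the overlapping neighbours) were chosen after their values were seen. A further gene is not reported here.

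The floor of 3 counts is 0.881 to 2.12 CPM. Reads carry no molecular identifiers, so floors cover counting error only.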

Additional observations from a re-analysis of the deposited data

Results flagged for a closer look

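In groups of 7 microglia libraries, 13 of 30 checks set the highest library apart from its group by Dixon's gap criterion. Its rate of about 1 in 20 groups flagged by chance holds for normally distributed values. Counts near 0 are not so distributed, and the flagged Cnga3 and Cngb3 values rest on at most 4 counts. The 13 flags therefore cannot be set against that rate. The checks share libraries and genes, so they are not independent.

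In TGFB1 microglia, replicate 5 stood apart for Arr3 at 6.96 CPM, where the next library had 1.41 CPM, and for Opn1mw at 10.4 CPM, where the next had 1.47 CPM. Its sum over the 8 cone genes other than Pde6h and Gngt2 was 45.7 CPM, and the next was 23.3 CPM. In GFP microglia, replicate 6 stood apart for Opn1sw at 73.6 CPM, where the next had 6.40 CPM. It also stood apart for the sum of all 10 cone genes at 411 CPM and for the sum of the 8 at 109.9 CPM.

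A different pair of libraries stood apart for the channel genes and for markers of other retinal cells. TGFB1 microglia replicate 6 was highest for Cnga3 at 2.12 CPM and Cngb3 at 1.41 CPM, values that rest on 3 and 2 counts. It was highest as well for bipolar markers at 139.8 CPM and Müller glia markers at 922 CPM. GFP microglia replicate 2 was highest for Cnga3 and Cngb3, each at 2.36 CPM from 4 counts, and for bipolar markers at 250.3 CPM. No cause was tested for any of these libraries.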

How the results depend on the processing

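Of 241 values of single cone genes under alternatives other than leaving out a library, 230 had the same direction and side of the threshold, 7 now passed and 4 changed sign. Of 622 with 1 library left out, 586 were the same, 11 now passed and 25 changed sign. A value without an adjusted p was counted as not passing. The causes were not tested. In microglia 7 of 10 cone genes fell below the filter on low counts, at library totals that span those of non-microglia.

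Genes called between TGFB1 and GFP microglia were 34, against 64 with no filter, 15 in the fit of all libraries and 16 to 34 with 1 library left out. In non-microglia they were 53, against 102 with no filter, 35 in DESeq2, 4 in the fit of all libraries and 28 to 110 with 1 library left out. Cone genes called lower there were 0, against 1 with no filter (Pde6h), 1 without robust dispersion and 1 in limma voom (both Opn1sw), and 0 to 4 with 1 library left out; those called higher were 0 to 1. Genes whose effects differed between fractions were 2, against 12 with no filter, 1 without robust dispersion and 1 to 2 with 1 library left out. Cone genes lower in GFP microglia than in GFP non-microglia were 8 to 9 with 1 library left out.

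Same-numbered libraries were not taken as pairs. In microglia their deviations correlated at -0.12 to 0.22, and 2 of 7 numbers matched best with themselves; in non-microglia the correlation was -0.07. With the replicate block, 60 genes were called in microglia and 109 in non-microglia, where 2 cone genes were lower (Opn1sw at -1.54 and Pde6h at -0.54).

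On plain library totals, summed cone CPM was 1443 in TGFB1 and 2458 in GFP non-microglia, against 1121 CPM in TGFB1 and 1901 CPM in GFP on TMM-scaled sizes. The share of that level found in microglia was then 18.3% in TGFB1 and 11.7% in GFP, against 25.6% in TGFB1 and 16.5% in GFP. Without Pde6h and Gngt2, on TMM-scaled sizes, it was 1.68% in TGFB1 and 1.84% in GFP.

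Signs changed as follows. In limma voom, Cngb3 in non-microglia was -0.044 and the difference of effects was -0.28 for Arr3 and 0.0075 for Opn1sw; in DESeq2 it was -0.087 for Arr3. With 1 library left out, changes in non-microglia ran from -0.21 to 0.53 for Opn1mw, -0.046 to 0.24 for Pde6c, -0.61 to 0.016 for Gngt2 and -0.72 to 0.62 for Cngb3. Differences of effects ran from -1.87 to 0.65 for Arr3, -2.07 to 0.64 for Opn1sw, -2.25 to 0.29 for Opn1mw, -1.25 to 0.27 for Gnat2, -0.51 to 0.73 for Pde6c, -0.041 to 0.55 for Gngt2 and -0.052 to 1.74 for Cnga3.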

Other observations

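Among 9227 protein-coding genes outside the 10, those whose levels followed the mean of the cone genes most closely over the 18 libraries were Aipl1 (Pearson r = 0.976), Tulp1 (0.970), Sag (0.968), Pde6g (0.962) and Prph2 (0.958). The libraries fall into 2 fractions, so these coefficients mostly describe a gene's presence in non-microglia and carry no test. All 5 are known from photoreceptors: Aipl1 is a chaperone of the phosphodiesterase, Tulp1 serves transport of proteins to the outer segment, Sag is rod arrestin, Pde6g is the inhibitory subunit of the rod phosphodiesterase, and Prph2 shapes outer segment discs. Aipl1 averaged 1.22 CPM in TGFB1 and 1.48 CPM in GFP microglia, against 79.9 CPM in TGFB1 and 88.1 CPM in GFP non-microglia. Tulp1 averaged 54.4 CPM in TGFB1 and 66.9 CPM in GFP non-microglia, and Prph2 94.9 CPM in TGFB1 and 114 CPM in GFP non-microglia.

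Of the cone identity genes, Sall3 went the other way between the fractions. It averaged 111 ± 11.1 CPM in TGFB1 microglia and 103 ± 16.4 CPM in GFP microglia (SD, n = 7 each), against 4.39 ± 2.06 CPM in TGFB1 and 3.77 ± 3.25 CPM in GFP non-microglia (SD, n = 2 each). Thrb, a thyroid hormone receptor gene of cones, averaged 1.02 ± 0.99 CPM in TGFB1 and 1.07 ± 0.78 CPM in GFP microglia (SD, n = 7 each), against 51.1 ± 1.25 CPM in TGFB1 and 52.9 ± 3.77 CPM in GFP non-microglia (SD, n = 2 each). Sall3 was picked here after its values were seen, and where its reads come from was not tested.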
